A study of Rattus norvegicus with 4 samples.

Results

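The genes described here encode enzymes and remodelling subunits that act on histones, DNA methylation and nucleosomes. They were chosen by symbol alone: every listed symbol that starts with Hdac, Kdm, Kmt, Setd, Dnmt or Smarc, with Tet1, Tet2 and Tet3, and without Kdm5c, Kdm5d and Kdm6a. The rule found 65 of the 30560 listed genes: 12 histone deacetylase genes, 15 Kdm demethylase genes, 8 Kmt and 10 Setd methyltransferase genes, 4 Dnmt genes, 3 Tet genes and 13 Smarc genes. They were measured by single-nucleus RNA-seq in nucleus accumbens of Sprague-Dawley rats aged 90 to 120 days. Rats were injected daily for 7 days with cocaine at 20 mg/kg or with saline, and a punch 2 mm wide around the accumbens core was taken 1 hour after the last injection. Each of the 4 libraries (saline female, cocaine female, saline male, cocaine male) combined tissue of 4 rats, so each treatment has 2 libraries, 1 per sex, from 16 rats in all. No group carries a transgene or a deletion.

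Histone deacetylases (HDACs) remove acetyl groups from histone tails, which is generally associated with lower transcription. Most Kmt and Setd enzymes add methyl groups to lysines of histones or other proteins, and Kdm enzymes remove them. Dnmt enzymes methylate cytosine, Tet enzymes oxidise methylcytosine on the way to its removal, and Smarc proteins are the ATPases and subunits of complexes that slide or evict nucleosomes, such as BAF (SWI/SNF) and ISWI. In the accumbens, histone acetylation, histone methylation and class II HDACs have been studied for years as regulators of the transcriptional response to psychostimulants in medium spiny neurons (MSN), its principal neurons, which carry either the dopamine D1 or the D2 receptor.

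The stretches of 250 bases upstream of the transcription start are shown for 4 genes on which the results turn: Kdm6b, Hdac4 and Hdac9, which had the smallest p-values among these genes for cocaine in D1-like MSN, astrocyte-like and D2-like MSN nuclei, and Smarca1, with the largest difference between MSN and glia. They are RefSeq entries of build GRCr8, written 5′ to 3′ on the gene's strand and ending 1 base before the start. Capitals mark TGACG, the leading part of the cAMP response element, on either strand.
Kdm6b (chr10:54641015-54641264, minus strand): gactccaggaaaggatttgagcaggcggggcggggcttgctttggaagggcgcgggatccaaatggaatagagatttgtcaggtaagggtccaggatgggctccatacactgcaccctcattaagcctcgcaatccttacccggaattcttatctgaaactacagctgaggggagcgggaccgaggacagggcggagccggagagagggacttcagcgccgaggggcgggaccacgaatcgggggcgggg
Hdac4 (chr9:100197638-100197887, minus strand): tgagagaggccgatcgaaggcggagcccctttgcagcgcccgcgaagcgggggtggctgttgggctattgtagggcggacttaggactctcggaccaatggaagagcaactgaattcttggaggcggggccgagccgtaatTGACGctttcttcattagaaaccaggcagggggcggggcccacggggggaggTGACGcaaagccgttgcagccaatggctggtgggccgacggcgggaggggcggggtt
Hdac9 (chr6:57052572-57052821, minus strand): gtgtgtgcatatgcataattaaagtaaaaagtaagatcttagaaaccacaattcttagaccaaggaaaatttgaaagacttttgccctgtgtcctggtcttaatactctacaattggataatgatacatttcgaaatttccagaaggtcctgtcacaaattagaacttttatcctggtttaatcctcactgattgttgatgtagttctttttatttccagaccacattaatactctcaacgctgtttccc
Smarca1 (chrX:131944283-131944532, minus strand): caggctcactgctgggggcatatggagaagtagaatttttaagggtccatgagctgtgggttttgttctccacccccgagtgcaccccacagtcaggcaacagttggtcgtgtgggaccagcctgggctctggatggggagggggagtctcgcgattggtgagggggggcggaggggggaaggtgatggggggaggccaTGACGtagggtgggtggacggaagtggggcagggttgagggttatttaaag
Of the 65 genes, 56 matched a RefSeq promoter entry by symbol, with 77 entries because some have several starts. TGACG was found 2 times in Hdac4, 1 time in Smarca1 and in neither of the other promoters shown; over all 56 genes it was found in 21, in 27 of 77 entries, against 18.2% of 33469 promoters of the same length. The whole element TGACGTCA, which contains TGACG, was in 0 of 77 entries and in 1.59% of all promoters. The AP-1 motif TGANTCA was in 4 of 77 entries (6.34% of all) and the Egr motif GCGNGGGCG in 5 of 77 (4.29% of all), each searched on both strands. The member entries held a median of 18 CG dinucleotides in 250 bases, against 5 over all promoters; Hdac9 with 2 and Smarca1 with 7 lie low, and Kdm6b with 16 and Hdac4 with 21 lie near the members' median. A match is a description of these letters only.

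The 4 libraries held 31484217 to 40737786 unique molecular identifiers (UMIs, counted RNA molecules) and 6213 to 7265 nuclei barcodes each, and pairs of libraries shared 10 to 18 barcodes. The male-specific Eif2s3y had 1899 and 1746 UMIs in the male libraries and 1 and 2 in the female libraries. After filters, 24843 nuclei remained, and their clusters were named from marker genes, giving 11 classes in which every library held 25 nuclei or more. The MSN markers Ppp1r1b, Rgs9, Bcl11b, Pde10a and Foxp1 summed to 4594 to 4913 CPM (UMIs scaled to a common library total) in D1-like MSN and 5373 to 5918 CPM in D2-like MSN nuclei, and none of them was at 0. Pvalb was not among the symbols used, so the Pvalb/Pthlh class rests on Pthlh, Kit and Eya1. Glutamatergic-like nuclei numbered 30 and 49 in the saline and 251 and 116 in the cocaine libraries, so that values over all nuclei also reflect the mix of cells.

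The members together made up 0.546% of all UMIs (727943). Of the 65, 63 were tested in at least 1 class and 40 in all 11 classes; in single classes 46 to 63 passed the filter on low counts. Hdac1l, with 1 UMI, and Dnmt3l, the catalytically inactive partner of the de novo methyltransferases, with 6 UMIs over all nuclei, were tested in none.

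Levels differed between cell classes. Levels are given in CPM of each class's own UMIs, as mean ± SD over the 4 libraries, and are compared between classes within a gene, never between genes. Across the 63 genes with a level, the highest class exceeded the lowest by a median of 2.83-fold (range 1.36-fold to 324-fold), with 19 genes under 2-fold. The 6 genes above 10-fold were Hdac9, Smarca1, Smarcd3, Hdac11, Tet1 and Dnmt3b. Glia held the highest mean for 41 genes, 16 of them in oligodendrocyte-like, 11 in astrocyte-like and 10 in microglia-like nuclei, and D1- or D2-like MSN nuclei held it for 6. The share of all genes with their highest mean in glia is not given here, so these counts do not set the members apart. They also hold relative to each class's total: as UMIs per nucleus 58 members were higher in MSN than in the glial mean and 2 lower. For 23 of 63 genes every library of the highest class lay above every library of all other classes; the share over all 13364 genes in the level fit was 32.9%, close to the members' share.

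**Figure D1:**
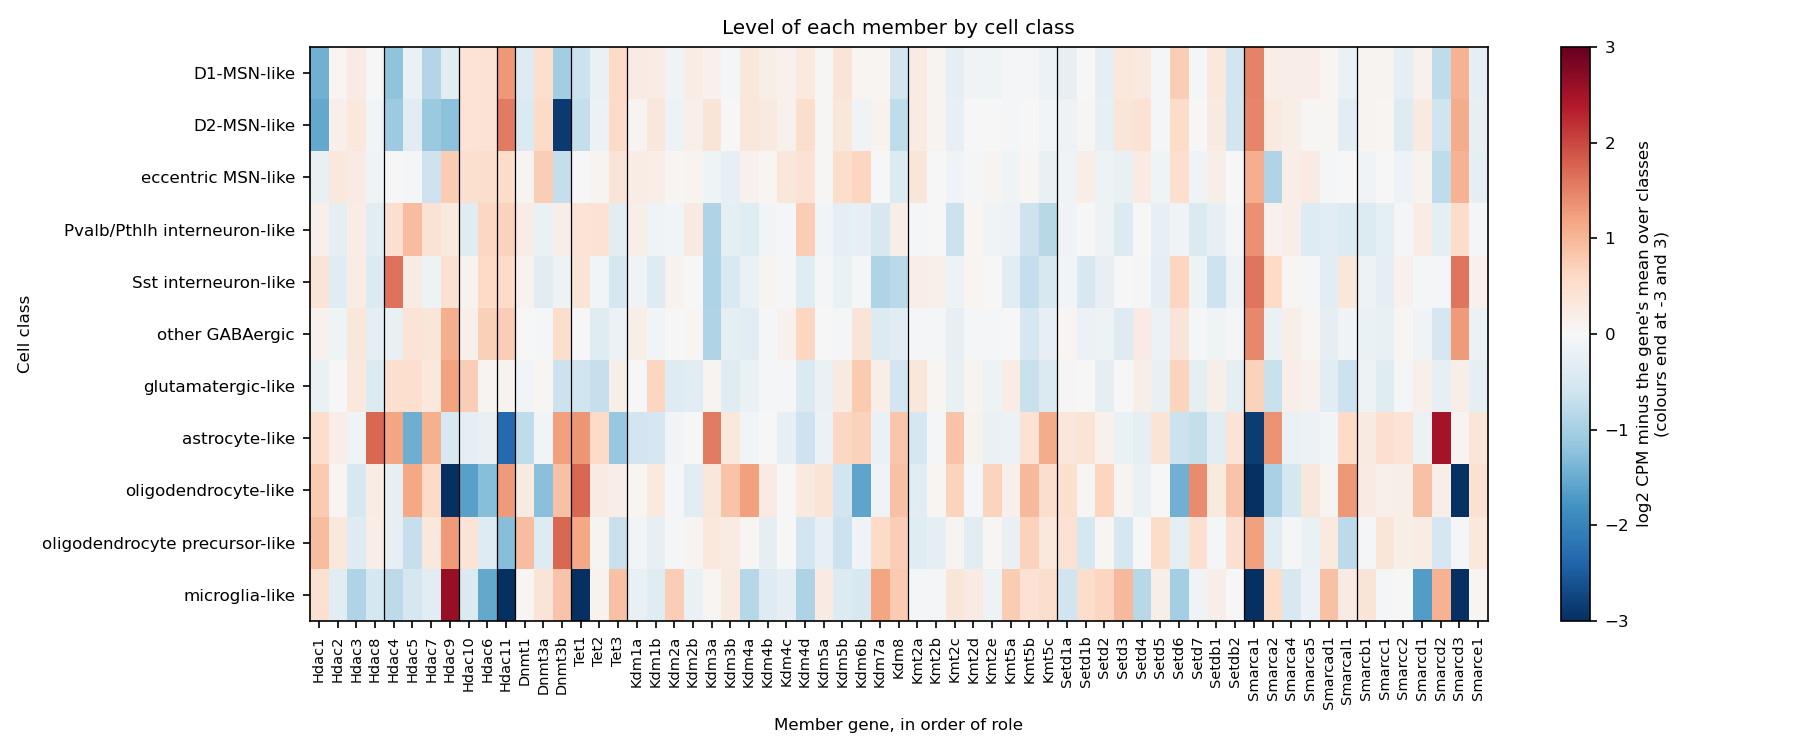
Level of the 63 members by cell class, as log2 CPM minus the gene's own mean over 11 classes (red above, blue below, levels under the 3-UMI floor drawn at it). D1-like and D2-like MSN are labelled D1-MSN-like and D2-MSN-like in the plots. Most columns are pale, and the strongest colours sit in a few genes. They include Hdac9 in microglia-like (high) and oligodendrocyte-like nuclei (low), and Smarcd2 in astrocyte-like nuclei (high). Low cells include Smarca1 in astrocyte-like, oligodendrocyte-like and microglia-like nuclei, Smarcd3 in oligodendrocyte-like and microglia-like nuclei, and Tet1 in microglia-like nuclei.

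Among class I deacetylases, which are mostly nuclear, Hdac1 was low in MSN: 8.81 ± 0.97 CPM in D1-like MSN and 8.32 ± 1.21 CPM in D2-like MSN nuclei, against 35.0 ± 1.47 CPM in astrocyte-like, 41.6 ± 1.17 CPM in oligodendrocyte-like and 45.9 ± 7.46 CPM in oligodendrocyte precursor-like nuclei (SD, n = 4). Taken as whole classes, no MSN library reached 10 CPM, and no library of these 3 glial classes fell below 33.0 CPM. The clusters joined in the D1-like MSN class differed in Hdac1, as given below. Its near relative Hdac2 was even by comparison, at 73.7 CPM in D1-like MSN, 78.4 CPM in D2-like MSN and 56.6 to 88.4 CPM in the glial classes. Hdac3, the catalytic partner of the NCoR and SMRT corepressors, was lower in glia, at 18.1 to 30.8 CPM against 40.2 and 42.1 CPM in the MSN classes. Hdac8 stood out in astrocyte-like nuclei at 540 ± 19.2 CPM, with every other class mean between 114 and 190 CPM.

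Class IIa deacetylases shuttle between cytoplasm and nucleus and bind Mef2 factors. Hdac9 had the widest range of all members: 1609 ± 301 CPM in microglia-like, 635 ± 60.5 CPM in oligodendrocyte precursor-like and 4.97 ± 2.14 CPM in oligodendrocyte-like nuclei (SD, n = 4). In neurons it ran from 607 ± 236 CPM in glutamatergic-like and 560 ± 66.8 CPM in other GABAergic nuclei, which did not differ beyond their spread, through 442 ± 32.9 CPM in eccentric MSN-like nuclei, an MSN type that stands apart from the D1 and D2 types, to 208 ± 12.9 CPM in D1-like MSN and 112 ± 17.3 CPM in D2-like MSN nuclei. The lowest D1-like MSN library (194 CPM) lay above the highest D2-like MSN library (134 CPM). Hdac4 was lowest in these 2 MSN classes, at 61.7 ± 3.23 CPM and 67.0 ± 8.80 CPM, and highest in Sst interneuron-like nuclei at 436 ± 83.2 CPM and astrocyte-like nuclei at 325 ± 89.0 CPM, whose libraries overlap. Hdac5, a class IIa gene studied with cocaine in this region, was highest in oligodendrocyte-like nuclei at 104 CPM and lowest in astrocyte-like nuclei at 17.0 CPM, with 40.9 and 37.1 CPM in the MSN classes.

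Hdac11, the only class IV deacetylase, was highest in D2-like MSN nuclei at 128 ± 7.32 CPM, followed by D1-like MSN nuclei at 108 ± 4.95 CPM and oligodendrocyte-like nuclei at 106 ± 5.55 CPM. It was at 18.1 ± 2.81 CPM in oligodendrocyte precursor-like, 8.62 ± 1.14 CPM in astrocyte-like and 4.67 ± 3.75 CPM in microglia-like nuclei. Oligodendrocyte-like nuclei therefore held more Hdac11 and less Hdac9 than precursor-like nuclei, with no overlap between their libraries for either gene. The class IIb gene Hdac6, a mostly cytoplasmic tubulin deacetylase, was at 39.4 ± 2.49 and 39.1 ± 4.74 CPM in the MSN classes and at 10.0 to 25.1 CPM in the glial classes.

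Of the DNA methylation genes, Dnmt1, which maintains methylation after replication, was highest in oligodendrocyte precursor-like nuclei at 34.0 CPM against 13.6 and 13.1 CPM in the MSN classes. Dnmt3a, the main de novo methyltransferase of neurons, was at 209 and 218 CPM in the MSN classes and at 62.0 CPM in oligodendrocyte-like nuclei. Dnmt3b was rare in every class tested, with its highest mean of 7.36 ± 3.97 CPM in oligodendrocyte precursor-like nuclei. Tet1 had 0 UMIs in microglia-like nuclei, where 3 counts correspond to 2.18 CPM, and 60.5 ± 4.85 CPM in oligodendrocyte-like, 46.3 ± 6.1 CPM in astrocyte-like and 11.8 ± 1.02 CPM in D1-like MSN nuclei. Tet3 had the reverse order in part, with 299 CPM in microglia-like, 247 and 242 CPM in the MSN classes and 73.3 CPM in astrocyte-like nuclei.

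Among the remodelling genes, Smarca1, the ISWI ATPase also called SNF2L, was at 90.6 ± 2.90 CPM in D1-like MSN and 88.3 ± 4.78 CPM in D2-like MSN nuclei and at 75.3 ± 13.4 CPM in oligodendrocyte precursor-like nuclei. It was at 4.42 ± 1.68 CPM in astrocyte-like, 2.55 ± 0.69 CPM in oligodendrocyte-like and 1.45 ± 1.72 CPM in microglia-like nuclei. The BAF60 subunit Smarcd3 (BAF60c) was at 64.2 ± 2.28 and 68.4 ± 6.01 CPM in the MSN classes and 4.01 ± 0.74 CPM in oligodendrocyte-like nuclei. Smarca1 and Smarcd3 both had their highest mean in Sst interneuron-like nuclei, without standing clear of all other libraries. Of the other BAF60 subunits, Smarcd2 was at 97.8 ± 16.9 CPM in astrocyte-like nuclei against 10.2 ± 0.49 CPM in D1-like MSN nuclei. Smarcd1 was highest in oligodendrocyte-like nuclei at 53.3 CPM. The 2 alternative BAF ATPases differed as well: Smarca2 (BRM) was at 694 CPM in astrocyte-like nuclei and 145 CPM in eccentric MSN-like nuclei, and Smarca4 (BRG1) stayed between 97.7 and 162 CPM in every class.

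The remaining named members are given by the range of their class means. Kmt2b, a trithorax-type H3K4 methyltransferase, was between 20.3 and 27.5 CPM in all 11 classes, and its relative Kmt2d was between 29.0 and 42.4 CPM. The core BAF subunit Smarcb1 was between 18.0 and 31.1 CPM, and Kdm1a (LSD1), an H3K4 demethylase, between 48.0 and 84.6 CPM. Setdb1, an H3K9 methyltransferase, was between 40.1 and 77.1 CPM. Kmt2a was between 123 and 225 CPM and Smarca5, the other ISWI ATPase, between 44.2 and 73.4 CPM. The paired BAF core subunits Smarcc1 and Smarcc2 were highest in astrocyte-like nuclei, at 165 and 163 CPM, and no lower than 90.2 and 93.3 CPM elsewhere. Tet2 ranged from 61.8 to 149 CPM.

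**Figure D2:**
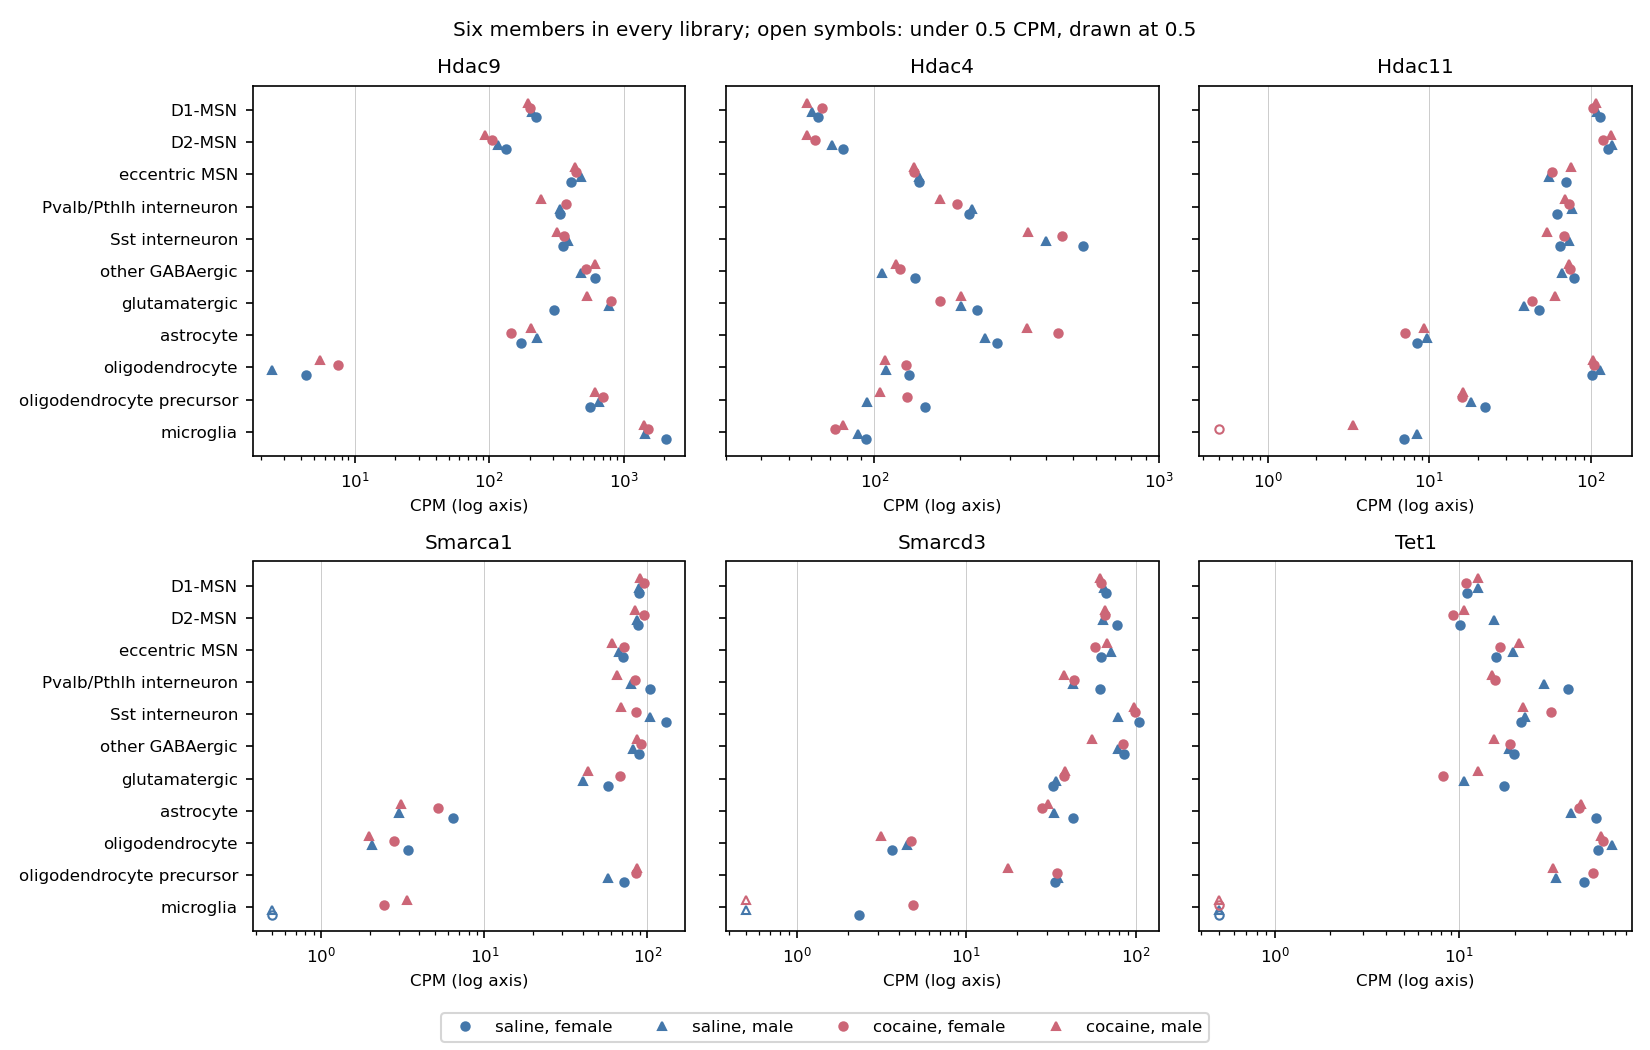
CPM on a log axis of 6 members in each class, with 1 symbol per library (circles female, triangles male, blue saline, red cocaine; open symbols are values under 0.5 CPM, drawn at 0.5). Hdac9 covers over 2 orders of magnitude between oligodendrocyte-like and microglia-like nuclei, and Tet1 lies at 0 in all 4 microglia-like libraries.

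The MSN classes were then compared with the 4 glial classes by edgeR's quasi-likelihood test on UMIs summed per library and class, with library as a block. Against the mean of the glial classes, 25 of 63 members were higher in MSN and 28 lower, against 42.3% and 31% of all 13364 genes, with a median log2 difference of -0.07 for the members and 0.08 for all genes. The 5 largest differences upwards were Smarca1 (log2 3.88), Hdac11 (2.84), Smarcd3 (2.77), Setd6 (1.48), which methylates the NF-kB subunit RelA, and Hdac6 (1.30). The 5 largest downwards were Dnmt3b (-3.04), Hdac1 (-2.16), Smarcd2 (-1.49), Kdm8 (-1.46) and Hdac7 (-1.40), a class IIa deacetylase. These differences are relative to each class's total: as UMIs per nucleus the median of all genes rises to a log2 difference of 1.61 in favour of MSN, whose nuclei held more UMIs, 58 members are higher and 2 lower, and Smarcd2, Kdm8 and Hdac7 turn to 0.05, 0.09 and 0.15, all below that median.

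By role, both class IIb genes and Hdac11 were higher in MSN than in the glial mean, beside 42.3% of all genes higher and 31% lower. Of 4 class I genes tested 1 was higher and 2 lower, and of 4 class IIa genes 0 were higher and 2 lower. Among Kdm genes 9 of 15 were higher and 5 lower, and among Kmt genes 1 of 8 (Kmt2a, log2 0.56) was higher and 5 lower. Dnmt genes had 1 higher and 2 lower of 3 tested, and Tet genes 1 higher and 1 lower of 3. Of 10 Setd genes 4 were higher and 5 lower, and of 13 Smarc genes 5 were higher and 6 lower. Taking each glial class by itself, 10 members were higher in MSN than in all 4 (Hdac3, Hdac6, Hdac11, Kdm4c, Kmt2a, Setd4, Setd6, Smarca1, Smarca4 and Smarcd3; 17% of all genes were) and 10 were lower than in all 4 (Dnmt3b, Hdac1, Kdm3b, Kdm8, Kmt2c, Kmt5b, Kmt5c, Setd2, Smarcc2 and Tet2; 8% of all genes were), relative to each class's total. Another 19 were higher than in at least 1 glial class and lower than in another, as were 25.8% of all genes.

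Against astrocyte-like nuclei, 28 of 63 members were higher in MSN and 26 lower (37.5% and 34.7% of all genes). Smarca1 (log2 4.30 ± 0.17 SE), Hdac11 (3.77 ± 0.14) and Tet3 (1.74 ± 0.10) were the highest, and Smarcd2 (-3.18), Dnmt3b (-3.09) and Hdac4 (-2.34) the lowest. Against oligodendrocyte-like nuclei, 20 were higher and 28 lower (41.4% and 38.3% of all genes), led by Smarca1 (5.06), Hdac9 (4.89) and Smarcd3 (4.04) upwards and by Dnmt3b (-2.73), Tet1 (-2.38) and Hdac1 (-2.26) downwards. Hdac11 differed from that class by a log2 of only 0.16.

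Against oligodendrocyte precursor-like nuclei, 23 were higher and 25 lower (33.3% and 28.1% of all genes); the 23 became 15 with relative-log-expression scaling and 13 to 21 on leaving out 1 library. The differences were led by Hdac11 (2.68), Tet3 (1.27) and Smarcd3 (1.13) upwards and by Dnmt3b (-3.56), Hdac1 (-2.41) and Hdac9 (-2.06) downwards. Smarca1, absent from or scarce in the other glial classes, differed from the precursors by a log2 of 0.25. Against microglia-like nuclei, 18 were higher and 22 lower (37.4% and 27.1% of all genes), and Hdac9 was the lowest at -3.41. Dnmt3b (-2.77) and Hdac1 (-1.95) followed; as UMIs per nucleus Hdac1 was at 0.03 there, against a median of 2.23 over all genes.

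In microglia-like nuclei several members were near the limit of counting. Tet1, with 0 UMIs over 4 libraries against 11.5 CPM in MSN, was at least 5.31-fold lower, set against 3 counts over the group. With UMIs pooled over the libraries, Smarca1 had 2 UMIs, a 61.7-fold lower level with an exact 95% Poisson interval of 17.1 to 509, and Smarcd3 had 3 UMIs, 30.5-fold lower with an interval of 10.4 to 148; these cover counting error only. Free RNA from broken MSN can add UMIs to any nucleus: the MSN genes Ppp1r1b, Rgs9, Drd1, Drd2 and Adora2a were at a median of 1.49% (0.686% to 12.7%) of their MSN level in microglia-like, 1.98% (0.482% to 10.3%) in oligodendrocyte-like and 2.33% (0.169% to 39.3%, the highest being Ppp1r1b) in astrocyte-like nuclei. As means of library values, Smarca1 was at 1.62% and 2.85% and Smarcd3 at 2.70% and 6.04% of their MSN level in microglia-like and oligodendrocyte-like nuclei. Hdac9 was at 3.11% in oligodendrocyte-like nuclei. These shares are of the mean of both MSN classes, while those of the landmarks are of the higher class, so the scales differ. They lie in the range of the landmarks. In oligodendrocyte-like nuclei, however, only Ppp1r1b lay above Smarcd3, and Drd1 came next at 4.03%. Whether these levels are background or low expression was not tested.

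**Figure D3:**
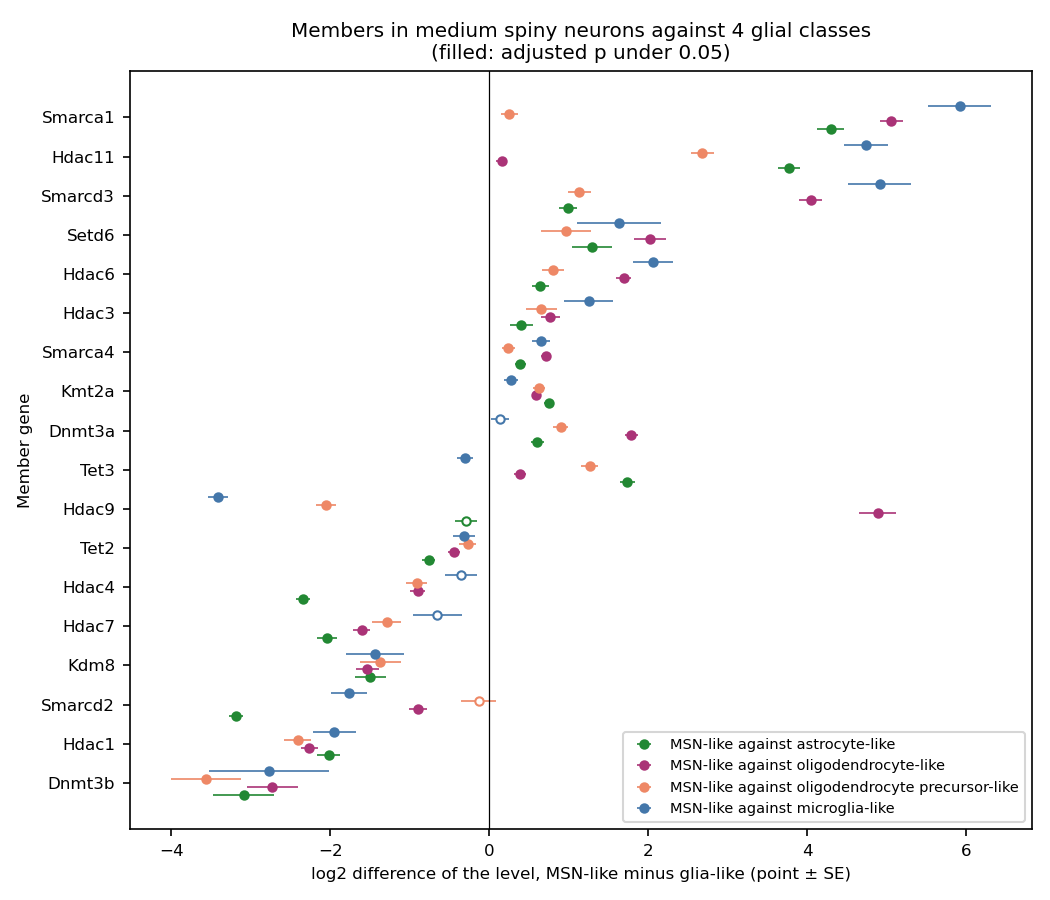
log2 difference of the level between MSN-like and each glial class for selected members (points with SE, filled where the adjusted p is under 0.05). Smarca1 and Hdac11 each lie near 0 for 1 glial class and above 2 for the others, and Hdac9 has large differences of both signs.

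D1-like MSN and D2-like MSN nuclei had nearly the same levels of these genes: 4 of 63 members passed the test (9.46% of all genes did), 2 higher in D1 and 2 lower, against 5.57% and 3.88% of all genes. Hdac9 was 1.86-fold higher in D1-like MSN nuclei (log2 0.89 ± 0.14 SE, adjusted p = 1.84e-06 by edgeR), and the call held under all 10 alternatives. Hdac11 was lower in D1-like MSN nuclei by a log2 of -0.25, and Kdm3a, an H3K9 demethylase, by -0.24, at 50.9 against 60.4 CPM. Dnmt3b was higher (log2 1.70), on 40 UMIs in D1-like MSN and 8 in D2-like MSN nuclei, and this call was lost in 5 of 10 alternatives. The 3 D1-like MSN clusters were not alike in Hdac9: without trimmed-mean scaling it was at 192 ± 13.2 CPM in the cluster led by Reln, 128 ± 9.29 CPM in the one with Ckmt2 and Drd3 among its leading genes and 677 ± 115 CPM in the small one led by Hpse. In the same order and scaling, Hdac1 was at 4.47, 11.4 and 40.4 CPM and Dnmt3b at 0.43, 0.86 and 15.0 CPM. The Hpse-led values rest on 8 to 12 UMIs of Hdac1 and 1 to 6 of Dnmt3b per library. The Hpse-led cluster stayed unnamed with doublets kept and with members allowed among the variable genes, so its D1-like name is uncertain. The Hdac11 and Kdm3a calls were lost in 3 and 6 of 10. Members not passing differed by log2 values between -0.24 and 0.23, and the fixed genes Hdac2, Hdac4, Hdac5, Kmt2a, Smarca2 and Smarca4 were among them.

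Cocaine was compared with saline within each class by edgeR's quasi-likelihood test with sex as a covariate. With 2 libraries per treatment this leaves 1 residual degree of freedom, moderated by the spread over all genes, and whether the pools vary as single rats would cannot be seen. With so few libraries, groups that do not overlap are a description only, and the share of all genes without overlap is not given here. Of the members, 1 passed in 1 class, Hdac4 in astrocyte-like nuclei (1 of 59 members tested there, against 1.35% of 10348 genes). No member passed in the other 10 classes or over all nuclei, where 46 to 63 were tested. DESeq2 called no member in any class. The median log2 fold change of the members was between -0.05 and 0.01 in every class and over all nuclei, and that of all genes between -0.01 and 0.01.

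The share of all genes that passed was small throughout: 0.285% in D1-like MSN, 0.275% in D2-like MSN, 0.546% in eccentric MSN-like, 0.465% in Pvalb/Pthlh interneuron-like, 0.441% in Sst interneuron-like, 0.0166% in other GABAergic, 0% in glutamatergic-like, 1.55% in oligodendrocyte-like, 0.0236% in oligodendrocyte precursor-like and 0.145% in microglia-like nuclei, and 0.0484% over all nuclei. At an unadjusted p under 0.05, 6 of 63 members passed in D1-like MSN nuclei (8.93% of all genes), 3 of 62 in D2-like MSN (9.54%), 5 of 62 in eccentric MSN-like (9.04%), 4 of 58 in Pvalb/Pthlh interneuron-like (9.07%) and 4 of 47 in Sst interneuron-like nuclei (8.81%). The counts were 2 of 63 in other GABAergic (4.41%), 2 of 56 in glutamatergic-like (2.6%), 7 of 59 in astrocyte-like (9.44%), 8 of 61 in oligodendrocyte-like (11%), 3 of 58 in oligodendrocyte precursor-like (6.43%) and 3 of 46 in microglia-like nuclei (7.49%), and 6 of 63 over all nuclei (13.3%). These shares are near those of all genes.

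Hdac4 in astrocyte-like nuclei was at 277 and 253 CPM in the female and male saline libraries and at 454 and 355 CPM in the cocaine libraries, on 418, 330, 685 and 443 UMIs. Both cocaine libraries lay above both saline libraries. The mean rose from 265 ± 16.8 CPM to 404 ± 70.3 CPM (SD, n = 2), which is a log2 difference of 0.61 ± 0.11 (SE; edgeR, adjusted p = 1.96e-05), with a log2 ratio of 0.71 in females and 0.49 in males. The call was lost on leaving out any 1 library (adjusted p 0.0528 to 0.59 with log2 values of 0.42 to 0.78), without the sex term (0.358), in nuclei gated by markers (0.157) and by DESeq2 (1.00). In astrocyte-like nuclei the moderation over all genes was complete, so the edgeR p-value gave no weight to the spread of Hdac4 itself. The other classes had Hdac4 log2 values between -0.29 and 0.02, none of which passed.

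Other measures moved in astrocyte-like nuclei along with Hdac4. The astrocyte list (Gja1, Aqp4, Slc1a3, Slc1a2, Gfap and Aldh1l1) summed to 10107 and 12348 CPM in the saline and 11030 and 12160 CPM in the cocaine libraries. The same 5 MSN markers, all above 0, summed to 642 and 515 CPM with saline and 935 and 795 CPM with cocaine. Among them Pde10a, a phosphodiesterase of MSN, rose from 86.1 and 40.6 CPM to 529 and 312 CPM, and without it they were at 556 and 475 CPM against 406 and 483 CPM. The Pvalb/Pthlh list (3 of 4 genes measured) was at 303 and 282 CPM with saline and 358 and 383 CPM with cocaine, the vascular list (4 of 6) at 131 and 136 against 172 and 188 CPM, the D1 list at 11.9 and 17.6 against 18.6 and 26.4 CPM, and the oligodendrocyte list at 134 and 116 against 142 and 146 CPM. The GABAergic list was at 9.27 and 9.97 against 15.2 and 16.8 CPM and the glutamatergic list, with 2 of 5 genes at 0, at 4.64 and 3.07 against 13.9 and 6.41 CPM. In 7 of 14 lists (these 6 and the MSN markers) both cocaine libraries lay above both saline libraries, and in 1 (cholinergic, under 1 CPM) both lay below. In its own class the Pvalb/Pthlh list was at 540 and 544 CPM with saline and 330 and 373 CPM with cocaine. With cocaine it therefore does not set that class apart from astrocyte-like nuclei. The part of these lists in the Hdac4 result was not tested.

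**Figure D4:**
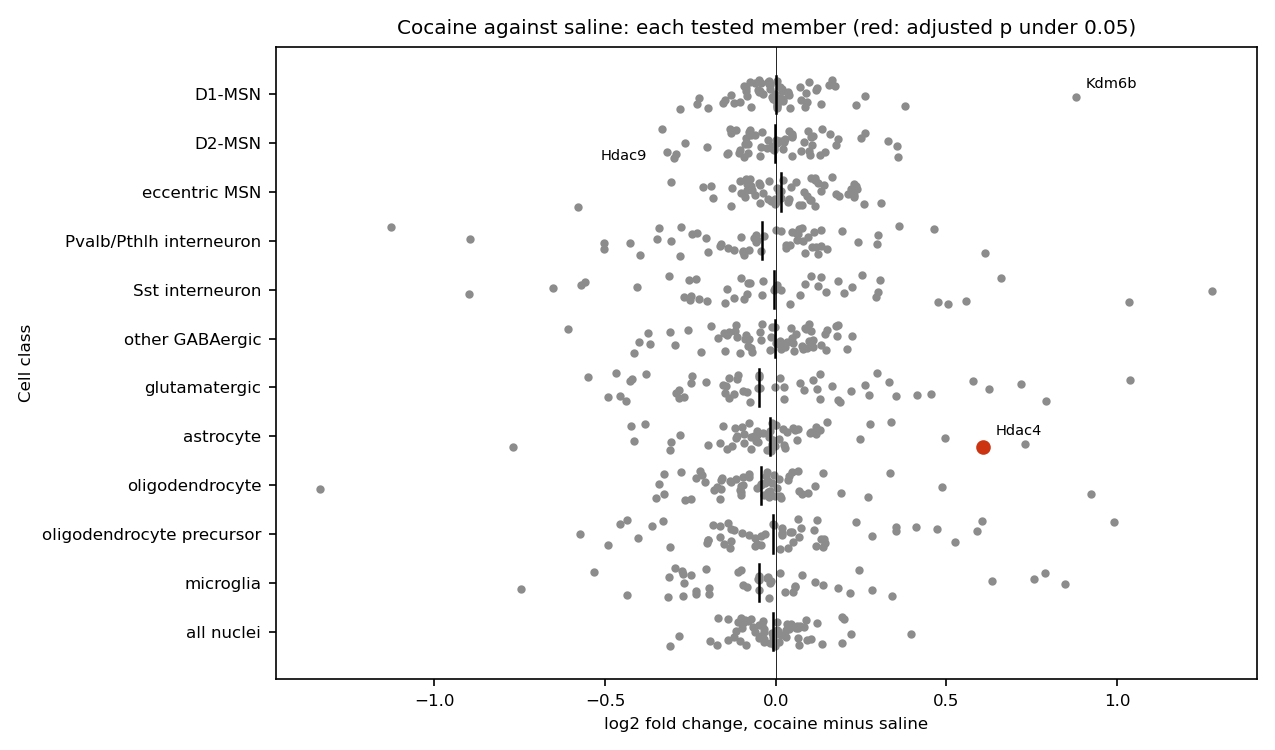
log2 fold change, cocaine minus saline, of every member tested in each class and over all nuclei (grey points, red where the adjusted p is under 0.05, black bar the median). The medians lie within 0.05 of 0, and the single red point is Hdac4 in astrocyte-like nuclei.

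In D1-like MSN nuclei the member with the smallest p was Kdm6b (JMJD3), an H3K27 demethylase that responds to neuronal and inflammatory stimuli. It was at 7.38 and 8.76 CPM in the female and male saline libraries and 17.8 and 12.4 CPM in the cocaine libraries, on 66, 96, 210 and 127 UMIs. The groups did not overlap, and the cocaine female library was the highest. The log2 difference of 0.88 ± 0.19 did not pass (edgeR, adjusted p = 0.0803). It passed with relative-log-expression scaling (adjusted p = 0.0353), without the low-count filter (4.39e-05) and without the saline male library (log2 1.04, 0.0061), and leaving out the other libraries gave log2 values of 0.60 to 1.14 that did not pass.

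The D1-like MSN class joined 3 clusters, which were also fitted apart, a choice made after the data were seen; their CPM are given without trimmed-mean scaling. Kdm6b was at 6.50 and 8.20 CPM with saline and 15.0 and 12.9 CPM with cocaine in the cluster led by Reln, where it passed (log2 0.89, edgeR adjusted p = 0.00259, 1 of 62 members, against 2.11% of 12443 genes). In the cluster with Ckmt2 and Drd3 among its leading genes it was at 8.76 and 8.94 CPM against 17.9 and 11.6 CPM and did not pass (adjusted p = 0.559; 0 of 62 members and 0.134% of genes passed there). Smarcad1, a remodelling ATPase, fell in the third cluster of 316 nuclei and low depth, led by Hpse (log2 -1.16, edgeR adjusted p = 0.0253, 1 of 41 members, against 1.79% of 4805 genes), from 234 and 114 CPM to 77.1 and 79.4 CPM on 44, 37, 25 and 16 UMIs. That cluster was not named D1-like with doublets kept or with members allowed among the variable genes. Beside these values, the D2 markers in D1-like MSN nuclei summed to 21.6 and 30.3 CPM with saline and 26.6 and 53.1 CPM with cocaine, and the eccentric MSN list to 197 and 239 against 299 and 211 CPM; their part was not tested.

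Hdac3, with the next smallest p in D1-like MSN nuclei, was at 30.8 and 30.2 CPM with saline and 40.5 and 38.8 CPM with cocaine. The groups did not overlap, with a log2 difference of 0.38 ± 0.10 that did not pass (adjusted p = 0.196). Kdm7a, an H3K9 and H3K27 demethylase, was at 37.0 and 35.5 CPM against 44.9 and 42.0 CPM (log2 0.26, adjusted p = 0.426). Kdm6b and Kdm7a were also among the 3 smallest p-values over all nuclei, with log2 differences of 0.40 and 0.22 (adjusted p = 0.22 and 0.259), as was Tet3 at 178 and 177 CPM against 204 and 202 CPM (log2 0.19, adjusted p = 0.252). All nuclei include those of D1-like MSN nuclei, so these are not separate observations. Kdm6b had its highest class mean, 21.8 CPM, in glutamatergic-like nuclei, which were more numerous in the cocaine libraries. The part of this cell mix in the values over all nuclei was not tested.

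In D2-like MSN nuclei the 3 smallest p-values belonged to differences downwards. Hdac9 was at 114 and 100.2 CPM with saline and 90.4 and 81.1 CPM with cocaine, without overlap (log2 -0.32 ± 0.08, edgeR adjusted p = 0.118). In nuclei gated by markers one by one it was at log2 -0.54 and passed (adjusted p = 0.00125). Hdac4 was at 65.6 and 61.4 CPM against 53.1 and 50.5 CPM (log2 -0.29, adjusted p = 0.266), the opposite direction to astrocyte-like nuclei. Kmt2d, an H3K4 methyltransferase, overlapped between the groups, at 37.0 and 29.7 CPM against 30.1 and 25.3 CPM (log2 -0.27, adjusted p = 0.459). The D1 marker list in these nuclei summed to 12.3 and 21.5 CPM with saline and 25.8 and 36.6 CPM with cocaine, and its part was not tested.

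**Figure D5:**
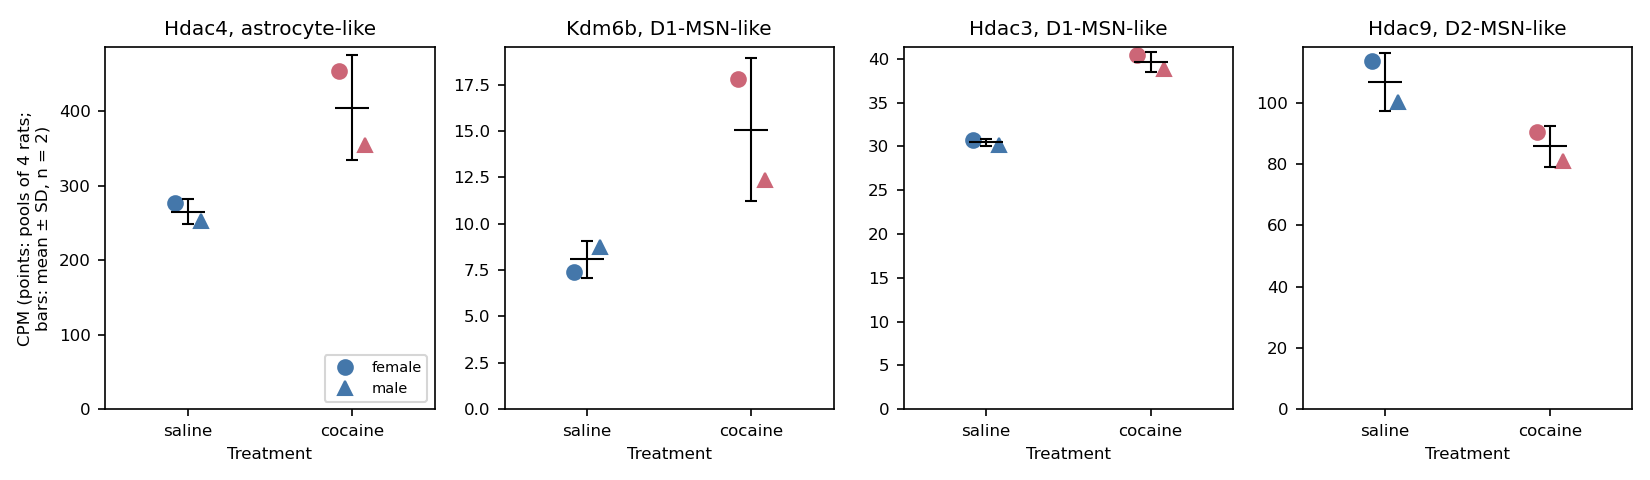
CPM of 4 members in the class where each had its smallest p-value or close to it, by treatment (points are pools of 4 rats, circles female and triangles male; bars mean ± SD, n = 2; axes start at 0). In all 4 panels the saline and cocaine libraries do not overlap, but the genes were picked for small p-values. Only Hdac4 in astrocyte-like nuclei passed the test.

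The genes tied most closely to earlier work with psychostimulants gave small differences in MSN. In D1-like MSN nuclei Dnmt3a was at 190 and 173 CPM with saline and 191 and 173 CPM with cocaine (log2 0.00 ± 0.07), so its groups overlapped. Hdac5 was at 35.3 and 30.2 CPM with saline and 39.8 and 37.2 CPM with cocaine in D1-like MSN nuclei (log2 0.23) and at 33.4 and 33.6 CPM against 30.3 and 30.3 CPM in D2-like MSN nuclei (log2 -0.14). Both sets of libraries were apart, in opposite directions, and neither difference passed (edgeR adjusted p = 0.511 and 0.73). Tet1 had log2 values of 0.00 and -0.33 in the 2 classes, Tet3 of 0.17 and 0.14, Hdac1 of -0.20 and 0.36 and Hdac2 of 0.00 and 0.13. Kdm1a had 0.09 and 0.15, Kmt2a 0.04 and -0.08, Setdb1 -0.09 and 0.10 and Dnmt1 -0.28 and -0.30. Among the remodelling genes, Smarca2 had 0.17 and -0.07, Smarca4 -0.09 and -0.06, Smarca5 0.16 and 0.16, and the subunits Smarcb1, Smarcc1, Smarcc2, Smarcd1 and Smarcd3 had values between -0.08 and 0.26. None of these passed, and the smallest adjusted p among them was 0.51. In simulated counts the test found 6.12% and 17.3% of true log2 changes of 0.5 in D1- and D2-like MSN nuclei. The spread of these counts was set and not estimated from the libraries, so the power in the data may differ. The median SE of the members' log2 values was 0.09 in both MSN classes, 0.17 in astrocyte-like and 0.27 in microglia-like nuclei.

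Whether cocaine acted differently in D1- and D2-like MSN nuclei was tested with an interaction term over both classes, with library as a block. None of 62 members passed (edgeR; 0.112% of 13340 genes did, and 8 members and 6.8% of all genes had an unadjusted p under 0.05). The smallest p was that of Smarca2, singled out after its value was seen, whose effect was higher in D1 by a log2 of 0.26 ± 0.07 (adjusted p = 0.203); it passed without the low-count filter and on leaving out the saline female or the cocaine male library. The D1-minus-D2 differences of Hdac4, Hdac5 and Hdac9 were 0.30, 0.39 and 0.20, with adjusted p of 0.41, 0.41 and 0.573.

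Female and male libraries were compared with treatment as a covariate. Setd7, a lysine methyltransferase of histones and other proteins, was lower in females in oligodendrocyte-like nuclei, at 305 and 287 CPM in the saline and cocaine female libraries against 381 and 409 CPM in the male libraries (log2 -0.41 ± 0.09 SE; edgeR, adjusted p = 0.000488). The sexes did not overlap. It was the 1 of 61 members to pass there, where 6.52% of all genes did. Hdac9 was lower in females in astrocyte-like nuclei, at 179 and 150 CPM against 234 and 211 CPM (log2 -0.44 ± 0.12; adjusted p = 0.0343), the 1 of 59 members to pass, against 1.47% of all genes. Both calls were lost by DESeq2. The Hdac9 call was also lost without any 1 library (adjusted p 0.237 to 0.922), and the Setd7 call without the saline female library (0.119) or either cocaine library (female 0.209, male 0.22) by edgeR. In the other 9 classes and over all nuclei no member passed by edgeR, and DESeq2 called none in any class. Each sex is 1 saline and 1 cocaine pool.

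The share of all genes that passed between the sexes was 0.21% in D1-like MSN, 0.786% in D2-like MSN, 0.685% in eccentric MSN-like, 0.0649% in Pvalb/Pthlh interneuron-like, 0.212% in Sst interneuron-like, 0.0663% in other GABAergic, 0.058% in glutamatergic-like, 0.532% in oligodendrocyte precursor-like and 0.398% in microglia-like nuclei, and 0.157% over all nuclei. At an unadjusted p under 0.05, members numbered 4 of 63 in D1-like MSN (12.9% of all genes), 6 of 62 in D2-like MSN (13.4%), 3 of 62 in eccentric MSN-like (9.97%), 0 of 58 in Pvalb/Pthlh interneuron-like (6.23%), 7 of 47 in Sst interneuron-like (7.34%) and 1 of 63 in other GABAergic nuclei (4.74%). They numbered 0 of 56 in glutamatergic-like (1.44%), 5 of 59 in astrocyte-like (10.4%), 10 of 61 in oligodendrocyte-like (17.9%), 7 of 58 in oligodendrocyte precursor-like (8.91%) and 3 of 46 in microglia-like nuclei (8.08%), and 11 of 63 over all nuclei (20%).

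A second list of 64 chromatin genes found by symbol that are no members (acetyltransferases, readers, Polycomb and other remodelling genes, sirtuins and the like) was tested the same way. None of its 44 to 64 tested genes passed for cocaine in any class or over all nuclei by edgeR. At an unadjusted p under 0.05 there were 4 of 63 in D1-like MSN, 5 of 63 in D2-like MSN and 6 of 59 in astrocyte-like nuclei. Against the glial mean, 17 of 63 were higher in MSN and 33 lower, and between D1- and D2-like MSN nuclei 4 were higher and 1 lower.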

How the data were processed

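Each library came as UMI counts of genes in barcodes, whole and unscaled, as the authors deposited them; Cell Ranger 6.1.2 made them, per the file headers, and the submitters' processing notes name the build rn7. The annotation was not given in the sources read, and reads of overlapping or near-identical genes may be split. Barcodes needed 200 genes or more and no more than 5% mitochondrial UMIs: of 26228, 4 failed and 1381 were removed as the highest doublet scores (0.8% per 1000 nuclei). The remaining 24843 nuclei were clustered (scanpy 1.11.5, leidenalg 0.10.2; 2000 variable genes without the members, 30 components, 15 neighbours, resolution 0.5) into 23 clusters, of which 4 with 254 nuclei stayed unnamed. Names rest on marker lists, with limits on the scores set after the data were seen.

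UMIs were summed per library and class and tested with edgeR 4.0.16 (quasi-likelihood, TMM scaling, filterByExpr, Benjamini-Hochberg adjustment over all genes tested, threshold 0.05). CPM values use TMM scaling over all classes for levels and within a class for treatment and sex, so that the same gene has slightly different CPM in each. Within-sex ratios add 0.5 to each count, use the same scaling as the CPM beside them and have no test. The tests were checked on simulated counts with the same spread set for all genes and not estimated from these libraries. The shares found may therefore differ from the power in the data. True log2 changes of 0.5 for cocaine were found in 6.12% of cases in D1-like MSN, 17.3% in D2-like MSN and 11.3% in astrocyte-like nuclei. Changes of 1 were found in 74.7%, 78.8% and 55.1%. For the interaction 4% of changes of 0.5 and 44% of changes of 1 were found, so a gene that did not pass may still have changed. DESeq2 1.42.0, other scalings, filters, gates and leaving out each library were alternatives. The 2 libraries of a treatment are pools of 4 rats of different sex. With sex in the fit, the cocaine p-values rest on how far the difference varied between the female and male pools, moderated over all genes. In astrocyte-like, Sst interneuron-like and oligodendrocyte precursor-like nuclei the moderation was complete (infinite prior degrees of freedom). There a gene's own spread between pools had no weight. Genes named are those that passed for cocaine, the 3 smallest p-values in D1-like MSN, D2-like MSN and all nuclei, the largest level differences, a fixed list of 25 well-studied genes, and those with the least and most spread over classes. The members and lists were chosen with earlier results of these data known. Cholinergic-like and vascular-like nuclei were too few to test. One further MSN marker used to name clusters is not reported here.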

Additional observations from a re-analysis of the deposited data

How the results depend on the processing

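Depth limits the small classes: microglia-like libraries held 186395 to 364799 UMIs, against 9048553 to 11807171 in D1-like MSN libraries. The labels number no replicates; each treatment has 1 female and 1 male library, so the sex covariate itself sets same-sex libraries against each other. Without that covariate the astrocyte-like count of members called for cocaine fell from 1 to 0, as it did by DESeq2 (0), in gated nuclei (0) and on leaving out any 1 library (0 to 0). Fits without 1 library have no sex term and assume that the lone library of an arm varies like the others. In D1-like MSN nuclei the count of 0 became 1 with relative-log-expression (RLE) scaling, with no low-count filter, and in the clusters numbered 2 and 14 fitted apart (1 each); without 1 library it was 0 to 1. It became 1 in D2-like MSN nuclei under the gate and 1 in Pvalb/Pthlh interneuron-like nuclei with no filter. The interaction count of 0 became 1 with no filter and ranged from 0 to 1 without 1 library. Between D1- and D2-like MSN nuclei, the 2 higher members became 1 with doublets kept, under the gate and with members allowed among the variable genes (1 to 2 without 1 library), and the 2 lower ones became 0 as UMIs per nucleus and 1 with no filter or the gate (0 to 2 without 1 library).

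As UMIs per nucleus, members higher and lower in MSN numbered 48 and 9 against astrocyte-like (72.2% and 16.2% of all genes), 60 and 3 against oligodendrocyte-like (84.1% and 8.84%), 54 and 4 against oligodendrocyte precursor-like (74.9% and 11.3%) and 58 and 1 against microglia-like nuclei (80.6% and 9.82%), and 58 and 2 against the glial mean (82.4% and 7.3%). Smarcd2, Kdm8 and Hdac7 turned to log2 differences of 0.047, 0.086 and 0.15 against the glial mean, and Hdac1 against microglia-like nuclei to 0.028. Against oligodendrocyte precursor-like nuclei, the 23 higher members became 15 with RLE scaling and 15 with doublets kept, and 13 to 21 without 1 library. RLE scaling lowered the median of all genes against microglia-like nuclei from 0.30 to 0.16.

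Female against male, the astrocyte-like count of 1 became 0 by DESeq2 and with no filter (0 to 0 without 1 library), the oligodendrocyte-like count of 1 became 0 by DESeq2 (0 to 2 without 1 library), and the D1-like MSN count of 0 ranged from 0 to 1 without 1 library. The causes of these changes were not tested. Of 518 values of single named genes under an alternative, 473 kept both direction and side of the threshold and 4 reversed, all as UMIs per nucleus. Most of the 473 were level differences (360 the same, 16 weaker). For cocaine 106 were the same, 5 stronger and 7 weaker, and female against male 4 were the same and 10 weaker.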

Other observations

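Classes too small to test also held members. Cholinergic-like nuclei (81 nuclei) had Hdac9 at 762 to 1210 CPM, above the 173 to 191 CPM of D1-like MSN libraries, both without trimmed-mean scaling, with Smarca1 at 72.4 to 95.3 CPM and Hdac11 at 34.5 to 60.1 CPM. In vascular-like nuclei (84 nuclei) Hdac9 was at 357 to 947 CPM on 69 UMIs.

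In oligodendrocyte-like nuclei Hdac8, singled out after its values were seen, had the smallest p of the members for cocaine, at 176 and 233 CPM with saline and 174 and 146 CPM with cocaine (log2 -0.33; edgeR, adjusted p = 0.0777). The groups did not overlap, and the log2 ratio was -0.02 in females and -0.68 in males.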
